A study of Mus musculus with 21 samples.

Results

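Ezh1, Ezh2, Eed, Suz12, Jarid2, Cbx2, Cbx7, Cbx8, Bmi1 and Phc1 are genes for subunits of the Polycomb repressive complexes, taken because several of them are known to give way to one another between embryonic stem cells and blood stem cells. They were found by gene symbol, and all 10 were listed among the 27968 genes of the sorted-cell table and among the 19321 genes with values in the coculture table. The study made hematopoietic cells from mouse embryonic stem cells (mESC) in a 3D self-assembling peptide system followed by coculture, and measured RNA in 21 libraries of 7 groups with 3 libraries each. In the coculture experiment, total cells of day 5 on mitomycin C-treated OP9 stromal cells (3D+OP9) were compared with total cells of day 5 on 0.1% gelatin (3D+0.1% gelatin). In the sorted-cell experiment, day 5 Lin- Sca-1+ c-kit+ (LSK) cells with or without the surface protein CD201 (D5-LSKCD201+ and D5-LSKCD201-) were compared with SSEA-1 sorted mESC and with LSKCD201+ cells of fetal liver (FL-LSKCD201+) and bone marrow (BM-LSKCD201+). By the labels, the mESC and all cells derived from them had the 129/ola background (the study's methods name both 129/ola and C57BL/6 as sources of mESC), while the cells from animals came from C57BL/6 mice (bone marrow at an age of 6 to 8 weeks and mid-gestation fetal liver), so strain and origin in the animal cannot be told apart. No group carried a named mutation. The medium given for the OP9 coculture held SCF, IL-3 and Flt3 ligand, and the medium of the gelatin arm is not given in the sources used here. The day 5 sorted cells came from the OP9 arm.

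Polycomb repressive complex 2 (PRC2) places methyl groups on lysine 27 of histone H3. EZH1 and EZH2 are its alternative catalytic subunits, EED and SUZ12 are core subunits that any active PRC2 needs, and JARID2 is a partner that helps bring PRC2 to chromatin. Canonical Polycomb repressive complex 1 (PRC1) reads this mark through a CBX protein, holds a PCGF protein such as BMI1 (PCGF4) or MEL18 (PCGF2), and carries a PHC protein that helps it compact chromatin. Embryonic stem cells are known for PRC1 with CBX7 and MEL18, and BMI1 is known for its need in blood stem cell self-renewal.

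The sorted cells were checked against marker genes of their labelled type and of other cell types. Values are FPKM, in which fragment counts are scaled to transcript length and to the size of the library, and their sum per library was 508622 to 620332 in the sorted-cell table. The 8 pluripotency markers summed to 6835 to 7400 FPKM in mESC and still to 3749 to 4247 FPKM in D5-LSKCD201-, against 24.5 to 32.8 FPKM in D5-LSKCD201+. The 8 markers of hematopoietic stem and progenitor cells summed to 413 to 421 FPKM in D5-LSKCD201+, against 87.0 to 93.2 FPKM in D5-LSKCD201-, 531 to 683 FPKM in FL-LSKCD201+ and 1369 to 1375 FPKM in BM-LSKCD201+. In D5-LSKCD201+, 6 of the 8 had a mean of at least 1 FPKM, led by Cd34 with 223 ± 3.23 FPKM, while the pan-leukocyte gene Ptprc was at 0.305 to 0.602 FPKM and the stem cell regulator Hlf at 0.104 to 0.183 FPKM. The 7 endothelial markers summed to 1468 to 1489 FPKM there, against 107 to 169 FPKM over the FL-LSKCD201+ and BM-LSKCD201+ libraries. The 8 stromal markers summed to 90.2 to 94.3 FPKM in D5-LSKCD201+ and 35.8 to 69.5 FPKM in D5-LSKCD201-, against 6.42 to 14.7 FPKM over the libraries from animals. FL-LSKCD201+ had 6 erythroid markers at 8984 to 19184 FPKM in sum, against 177 to 186 FPKM in BM-LSKCD201+, and 6 myeloid markers at 1789 to 1897 FPKM against 421 to 443 FPKM. In 4 groups a pair of libraries lay far nearer to each other than to the remaining library, which was 3D+OP9 replicate 3, D5-LSKCD201- replicate 2, FL-LSKCD201+ replicate 1 and BM-LSKCD201+ replicate 1. The study calls the libraries of a sorted group biological replicates, and the labels do not say whether they were separate cultures or animals, so p-values measure only the spread between these samples, which may be technical.

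Promoter sequences are shown for Ezh1 and Ezh2, whose levels ran in opposite directions between mESC and bone marrow, for Suz12, which shares a motif with Ezh2, and for Bmi1, which had its highest level in bone marrow. They are RefSeq windows on GRCm38.p6 from 250 bases before to 30 bases after the start site, 5′ to 3′ on the strand of the gene. Capitals mark an E2F-like octamer, any of TTTGGCGC, TTTCCCGC, TTTCGCGC and TTTGCCGC on either strand.
Ezh1 (chr11:101226434-101226713, minus strand): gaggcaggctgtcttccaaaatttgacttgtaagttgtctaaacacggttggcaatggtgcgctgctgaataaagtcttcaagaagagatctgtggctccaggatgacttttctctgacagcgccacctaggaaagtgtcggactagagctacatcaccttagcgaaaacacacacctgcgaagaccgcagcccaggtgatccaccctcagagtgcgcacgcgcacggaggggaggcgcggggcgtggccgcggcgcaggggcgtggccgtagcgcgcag
Ezh2 (chr6:47595001-47595280, minus strand): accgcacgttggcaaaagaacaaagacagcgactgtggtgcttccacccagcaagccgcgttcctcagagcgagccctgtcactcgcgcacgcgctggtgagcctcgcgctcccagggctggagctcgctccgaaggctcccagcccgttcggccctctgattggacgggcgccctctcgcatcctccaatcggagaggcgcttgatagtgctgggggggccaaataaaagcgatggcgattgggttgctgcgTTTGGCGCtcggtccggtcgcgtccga
Suz12 (chr11:79992856-79993135, plus strand): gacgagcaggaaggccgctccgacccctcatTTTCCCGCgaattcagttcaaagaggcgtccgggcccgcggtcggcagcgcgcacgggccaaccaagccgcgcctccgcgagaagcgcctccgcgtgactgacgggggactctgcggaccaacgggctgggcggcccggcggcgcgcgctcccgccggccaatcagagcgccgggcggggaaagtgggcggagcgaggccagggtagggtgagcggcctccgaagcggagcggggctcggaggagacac
Bmi1 (chr2:18676768-18677047, plus strand): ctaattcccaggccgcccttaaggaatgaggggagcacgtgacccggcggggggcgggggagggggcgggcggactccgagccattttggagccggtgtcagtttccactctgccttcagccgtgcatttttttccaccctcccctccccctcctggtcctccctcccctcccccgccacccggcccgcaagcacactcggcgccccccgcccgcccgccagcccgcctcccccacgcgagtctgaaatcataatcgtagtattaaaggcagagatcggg
The promoter table held 9 of the 10 members, without Cbx2, in 10 windows because Jarid2 had a pair of start sites. An E2F-like octamer was found in the windows of Ezh2 and Suz12 only, at positions 4 to 11 from the start site in Ezh2 and -219 to -212 in Suz12. Of all 32851 windows of this length, 2.12% held such an octamer. Each of these octamers contains a CpG, and the windows of the members were rich in CpG, as given below. The share over all windows is therefore not a like background for them. The letters CCAAT, searched on both strands, occurred 3 times in the Ezh2 window and not in those of Ezh1, Bmi1 and Phc1, and 36.1% of all windows held them. All 10 windows held more CpG than the median window, with 9 in Phc1, 21 in Ezh1, 23 in Bmi1, 30 in Ezh2 and 41 in Suz12, against a median of 6 over all windows. These matches describe letters in a window and say nothing of which factor binds there.

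The genes lie apart in the genome except for Cbx2 and Cbx8. On GRCm38 by GENCODE M21, Cbx2 (chr11:119022962-119031270) and Cbx8 (chr11:119036305-119040969) stand within 18008 bases, and Ezh1 (chr11:101191115-101226463) and Suz12 (chr11:79993106-80034123) lie on the same chromosome. Ezh2 is at chr6:47530139-47595341, Phc1 at chr6:122317731-122340561, Eed at chr7:89954654-89980983, Jarid2 at chr13:44729474-44921643, Cbx7 at chr15:79915807-79971119 and Bmi1 at chr2:18677018-18686629. The sorted-cell table gives Eed and Cbx7 the merged locus of overlapping neighbours, among them Apobec3 for Cbx7, so their values may share reads with these. The loci of Ezh2 and Suz12 are no wider than the genes but also hold Gm26625 and Gm26563, so the same caution covers them.

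**Figure D1:**
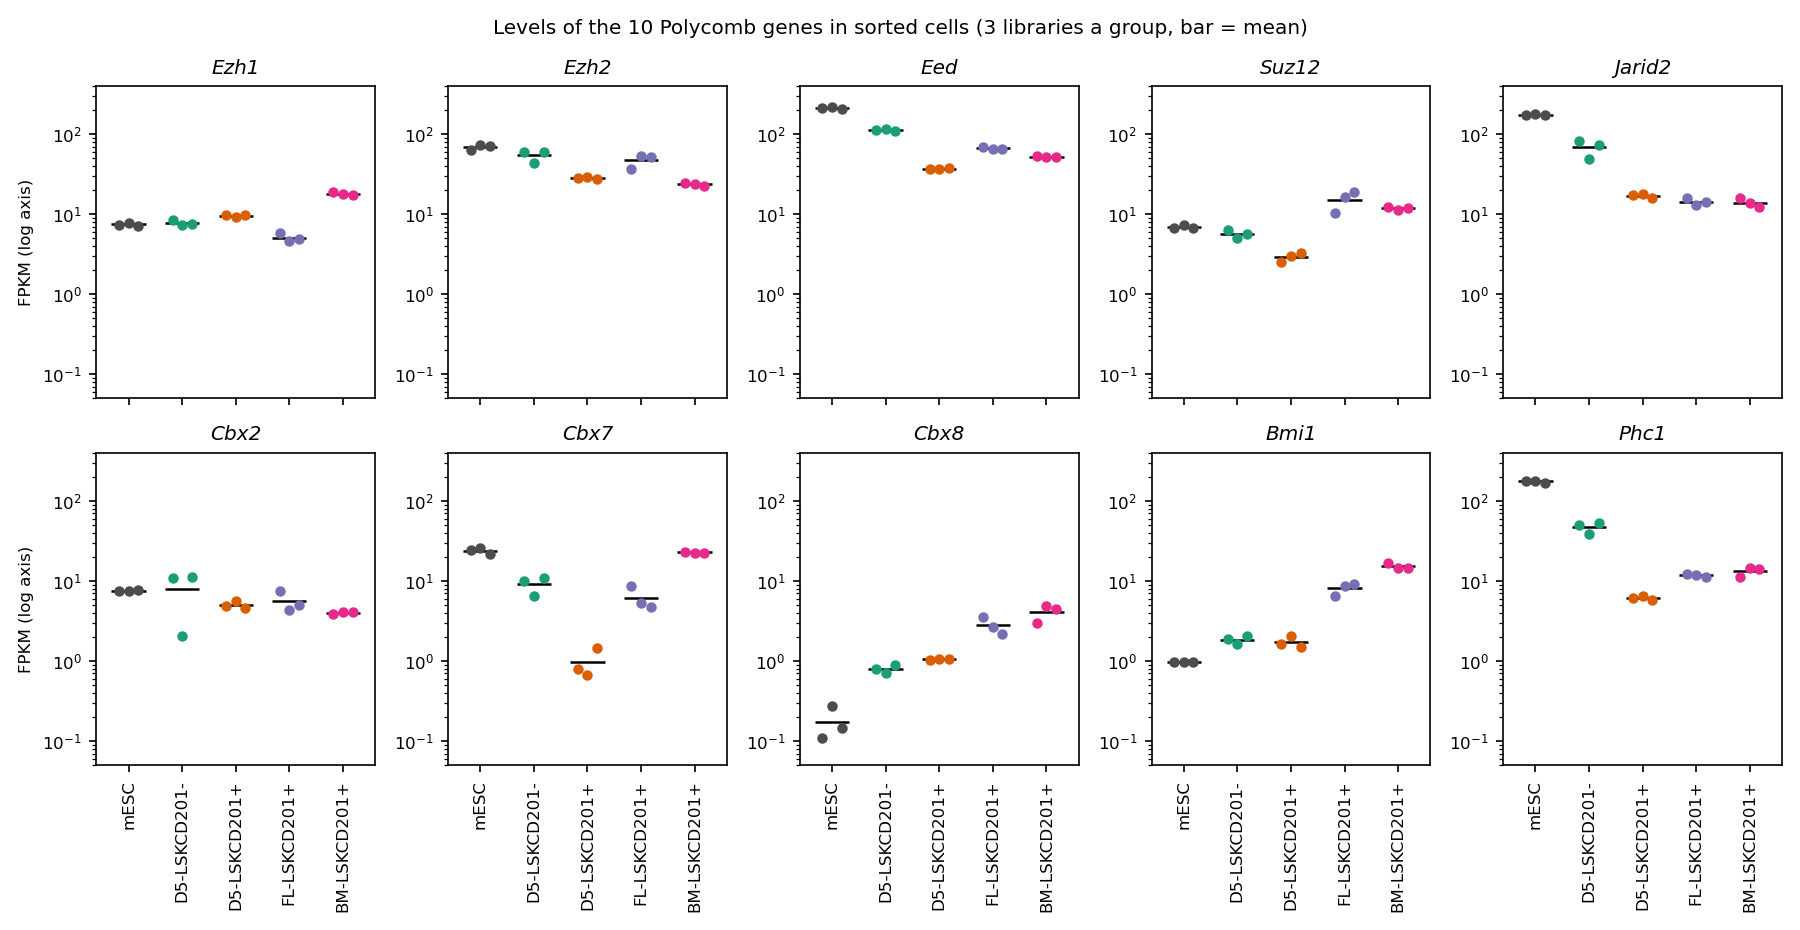
FPKM of each member in every sorted-cell library on a log axis, with 3 points a group and a bar at the mean. Phc1, Jarid2 and Eed were highest in the 3 mESC libraries, while Bmi1, Cbx8 and Ezh1 were highest in BM-LSKCD201+, and Cbx7 was high at both ends and lowest in D5-LSKCD201+.

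Of the 10 members, 5 had their highest mean in mESC, namely Ezh2, Eed, Jarid2, Cbx7 and Phc1. Ezh1, Cbx8 and Bmi1 were highest in BM-LSKCD201+, Suz12 in FL-LSKCD201+ and Cbx2 in D5-LSKCD201-. The ratio of the highest to the lowest group mean was 28.5 for Phc1, 24.3 for Cbx7, 23.5 for Cbx8, 15.7 for Bmi1 and 12.5 for Jarid2. It was smaller for Eed (5.74), Suz12 (5.19), Ezh1 (3.54), Ezh2 (2.93) and Cbx2 (2.003). The lowest level of Eed, Suz12, Cbx7 and Phc1 was in D5-LSKCD201+.

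The catalytic subunits of PRC2 ran in opposite directions between mESC and bone marrow. Ezh1, whose product is the catalytic subunit known from resting and differentiated cells, was at 19.1, 18.1 and 17.2 FPKM in BM-LSKCD201+, at 9.79, 9.30 and 9.84 FPKM in D5-LSKCD201+ and at 8.40, 7.36 and 7.60 FPKM in D5-LSKCD201-. It was at 7.35, 7.88 and 7.18 FPKM in mESC and at 5.81, 4.69 and 4.84 FPKM in FL-LSKCD201+. Every bone marrow library lay above every other sorted library, and every fetal liver library lay below. Neighbours in this order differed by the limma test except D5-LSKCD201- and mESC, whose libraries overlapped (adjusted p = 0.649). The step from D5-LSKCD201+ to D5-LSKCD201- (adjusted p = 0.0203) did not pass without D5-LSKCD201+ replicate 1 or 3 or D5-LSKCD201- replicate 3 (0.0617 to 0.0747).

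Ezh2, the catalytic subunit known from dividing cells, was at 64.2, 72.4 and 71.7 FPKM in mESC, at 59.8, 43.6 and 59.8 FPKM in D5-LSKCD201- and at 37.1, 53.2 and 52.2 FPKM in FL-LSKCD201+. It was at 28.7, 29.0 and 27.8 FPKM in D5-LSKCD201+ and at 24.6, 24.2 and 22.3 FPKM in BM-LSKCD201+. D5-LSKCD201- and FL-LSKCD201+ overlapped and did not pass the test between them (adjusted p = 0.386), and the other neighbours did. Of these, mESC and D5-LSKCD201- passed narrowly (adjusted p = 0.0473, 0.0122 to 0.135 over the alternatives) and did not pass with any 1 of the 3 mESC libraries left out, with the replicate block, without a filter or with a constant prior variance. D5-LSKCD201+ and BM-LSKCD201+ (adjusted p = 0.00381) did not pass in a single fit over all sorted groups (0.0986). On the same per-length scale the Ezh1 share of the summed Ezh1 and Ezh2 FPKM was 9.73% ± 0.588 in mESC, 12.7% ± 1.62 in D5-LSKCD201-, 25.3% ± 0.967 in D5-LSKCD201+, 10.04% ± 3.03 in FL-LSKCD201+ and 43.3% ± 0.481 in BM-LSKCD201+ (SD, n = 3). The share was higher in BM-LSKCD201+ than in every other library, and D5-LSKCD201+ lay between bone marrow and the remaining groups without overlap. With 3 libraries against 3, the exact permutation test over these shares cannot go below p = 0.1, which each of these comparisons reached.

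The summed FPKM of 13 cell cycle genes had the same order of groups as Ezh2, although by group means only 5 of the genes had this order themselves (Mcm2, Mcm3, Mcm4, Mcm5 and Top2a). The sum was 2680 to 2715 in mESC, 2286 to 2548 in D5-LSKCD201-, 1675 to 1835 in FL-LSKCD201+, 1436 to 1441 in D5-LSKCD201+ and 678 to 696 in BM-LSKCD201+. Of these 13 genes, 10 passed both thresholds as lower in BM-LSKCD201+ than in mESC and 8 as higher in FL-LSKCD201+ than in BM-LSKCD201+, while none was called between D5-LSKCD201- and mESC, and Mki67 and Pcna were highest in FL-LSKCD201+. Their part in the differences of Ezh1 and Ezh2 was not tested.

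The core subunits did not move together. Eed, which binds the methylated histone tail, was at 210, 218 and 209 FPKM in mESC, 112, 115 and 110 FPKM in D5-LSKCD201-, 68.5, 65.7 and 65.9 FPKM in FL-LSKCD201+, 53.3, 52.1 and 51.8 FPKM in BM-LSKCD201+ and 36.5, 36.8 and 37.8 FPKM in D5-LSKCD201+. No neighbouring groups overlapped, and each step passed the limma test (adjusted p of at most 0.0068), although that between fetal liver and bone marrow did not with the nearest pair of replicates averaged (adjusted p = 0.151). Suz12, the scaffold of the complex, was instead highest in the cells taken from animals, with 10.5, 16.6 and 18.7 FPKM in FL-LSKCD201+ and 12.3, 11.4 and 11.97 FPKM in BM-LSKCD201+. It was at 6.74, 7.42 and 6.80 FPKM in mESC, 6.37, 5.02 and 5.66 FPKM in D5-LSKCD201- and 2.55, 2.99 and 3.27 FPKM in D5-LSKCD201+. Suz12 thus had its lowest libraries in D5-LSKCD201+, while fetal liver and bone marrow overlapped (adjusted p = 0.23) and mESC and D5-LSKCD201- did not pass the test between them (adjusted p = 0.0735). The D5-LSKCD201- libraries nonetheless all lay below those of mESC. Their difference passed after quantile normalization (-0.43 in place of -0.26, adjusted p = 0.00663).

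The ratio of Eed to Suz12 FPKM was 30.5 ± 0.919 in mESC, 19.98 ± 2.63 in D5-LSKCD201-, 12.7 ± 1.39 in D5-LSKCD201+, 4.68 ± 1.63 in FL-LSKCD201+ and 4.42 ± 0.149 in BM-LSKCD201+ (SD, n = 3). The libraries of these groups did not overlap, except that the bone marrow ratios lay within the range of fetal liver. In the coculture table the same ratio was 1.25 ± 0.0285 in 3D+0.1% gelatin and 1.16 ± 0.123 in 3D+OP9. The 2 tables were normalized separately, and a ratio that far apart in cells of partly like kind limits comparisons of levels between these genes. The subunit shares also set levels of different genes side by side. The same caution covers them, and a share of FPKM need not be the make-up of the complexes.

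Jarid2, the PRC2 partner, was at 174, 180 and 173 FPKM in mESC and at 82.7, 48.9 and 73.8 FPKM in D5-LSKCD201-. It was at 17.6, 17.7 and 15.9 FPKM in D5-LSKCD201+, 15.8, 13.1 and 14.1 FPKM in FL-LSKCD201+ and 15.9, 13.8 and 12.3 FPKM in BM-LSKCD201+. The latter 3 groups lay close together, and of their neighbours in order neither D5-LSKCD201+ and FL-LSKCD201+ (adjusted p = 0.0509) nor FL-LSKCD201+ and BM-LSKCD201+ (adjusted p = 0.825) passed the test.

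Of Cbx2, Cbx7 and Cbx8, which code for readers in canonical PRC1, Cbx7 had the widest range. It was at 24.3, 25.8 and 21.4 FPKM in mESC and at 23.3, 22.5 and 22.5 FPKM in BM-LSKCD201+, with overlap and a log2 difference of -0.06 (95% interval -0.24 to 0.12). After quantile normalization that difference was -0.29 and passed the test (adjusted p = 0.0051). Cbx7 was at 9.94, 6.49 and 10.8 FPKM in D5-LSKCD201-, at 8.58, 5.32 and 4.75 FPKM in FL-LSKCD201+ and at 0.799, 0.670 and 1.48 FPKM in D5-LSKCD201+. Every D5-LSKCD201+ library was below every other sorted library, and D5-LSKCD201- and FL-LSKCD201+ overlapped (adjusted p = 0.119). The latter difference passed without D5-LSKCD201- replicate 2 (adjusted p = 0.0451) or FL-LSKCD201+ replicate 1 (0.0253). It also passed after quantile normalization (0.0351) and in a single fit over all sorted groups (0.0413). Log2 differences here are of log2(FPKM + 1) and understate the change of genes near 1 FPKM.

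Cbx8, another reader of the PRC2 mark, was nearly absent from mESC at 0.108, 0.272 and 0.147 FPKM. It was at 0.801, 0.701 and 0.895 FPKM in D5-LSKCD201-, 1.04, 1.05 and 1.07 FPKM in D5-LSKCD201+, 3.59, 2.64 and 2.16 FPKM in FL-LSKCD201+ and 3.00, 4.94 and 4.47 FPKM in BM-LSKCD201+. Fetal liver and bone marrow overlapped (adjusted p = 0.107), and both lay above the other sorted libraries, of which the day 5 groups did not pass the test between them (adjusted p = 0.0708). The day 5 libraries did not overlap, though. Their difference passed after quantile normalization (0.48 in place of 0.19, adjusted p = 0.00108) and with a constant prior variance (adjusted p = 0.0438). Cbx2, the member that compacts chromatin through its own charged region, was at 7.53, 7.43 and 7.70 FPKM in mESC, 4.92, 5.56 and 4.58 FPKM in D5-LSKCD201+, 7.41, 4.35 and 4.99 FPKM in FL-LSKCD201+ and 3.91, 4.06 and 4.04 FPKM in BM-LSKCD201+. In D5-LSKCD201- it was at 10.8 and 11.2 FPKM in replicates 1 and 3 and at 2.05 FPKM in replicate 2, the library that stands apart. In order of means from D5-LSKCD201- through mESC, FL-LSKCD201+ and D5-LSKCD201+, no neighbours passed the test (adjusted p of 0.792, 0.0597 and 0.614). Without that library, Cbx2 was higher in D5-LSKCD201- than in mESC by a log2 difference of 0.49 (adjusted p = 0.000291) instead of -0.17 with it (adjusted p = 0.792). The last step, from D5-LSKCD201+ to BM-LSKCD201+, passed the limma test (0.26, adjusted p = 0.0252). It did not pass in a single fit over all sorted groups (0.544) or with the nearest pair of replicates averaged (0.0577). Nor did it without D5-LSKCD201+ replicate 1 or 2 or BM-LSKCD201+ replicate 2 or 3 (0.0543 to 0.0930). Cbx2 in D5-LSKCD201+ and BM-LSKCD201+ against mESC also did not pass in the single fit (0.245 and 0.0731).

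**Figure D2:**
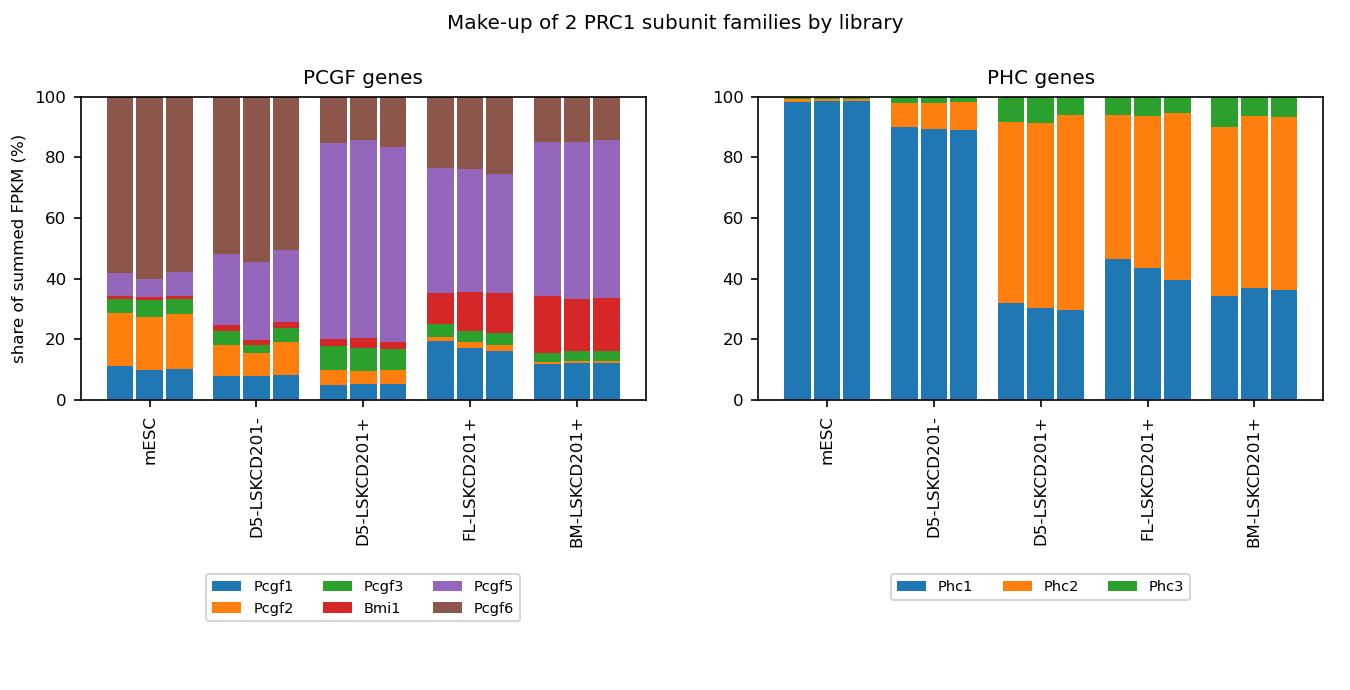
Share of the summed FPKM that each gene of the PCGF and PHC families took, as 1 stacked bar for each sorted-cell library. Bmi1 took 12.2% and 17.8% of the PCGF sum as means in FL-LSKCD201+ and BM-LSKCD201+ against 1.07% to 2.49% in the other groups, and Phc2 was the leading PHC gene outside mESC and D5-LSKCD201-.

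Bmi1, a PCGF gene known for its need in blood stem cells, was at 0.962, 0.969 and 0.978 FPKM in mESC, 1.87, 1.62 and 2.07 FPKM in D5-LSKCD201- and 1.62, 2.08 and 1.504 FPKM in D5-LSKCD201+. It was at 6.54, 8.64 and 9.14 FPKM in FL-LSKCD201+ and at 16.7, 14.4 and 14.5 FPKM in BM-LSKCD201+. The day 5 groups overlapped (adjusted p = 0.651), lay above mESC, and stayed below every fetal liver and bone marrow library. Pcgf2, which encodes MEL18, ran the other way, with 16.01 ± 0.575 FPKM in mESC, 9.45 ± 1.65 FPKM in D5-LSKCD201-, 3.25 ± 0.298 FPKM in D5-LSKCD201+, 1.13 ± 0.264 FPKM in FL-LSKCD201+ and 0.556 ± 0.0579 FPKM in BM-LSKCD201+. The Bmi1 share of Bmi1 and Pcgf2 was 5.72% ± 0.188 in mESC, 16.5% ± 1.17 in D5-LSKCD201-, 34.8% ± 6.03 in D5-LSKCD201+, 87.9% ± 0.785 in FL-LSKCD201+ and 96.5% ± 0.182 in BM-LSKCD201+ (SD, n = 3), and no groups overlapped. In D5-LSKCD201+ the higher share came with a lower Pcgf2, while Bmi1 itself did not pass the test against D5-LSKCD201-.

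Phc1, the polyhomeotic subunit of stem cell PRC1, was at 178, 179 and 170 FPKM in mESC and at 50.4, 38.7 and 53.0 FPKM in D5-LSKCD201-. It was at 11.2, 14.7 and 14.1 FPKM in BM-LSKCD201+, 12.1, 11.96 and 11.2 FPKM in FL-LSKCD201+ and 6.06, 6.59 and 5.84 FPKM in D5-LSKCD201+. Fetal liver and bone marrow overlapped (adjusted p = 0.296), and D5-LSKCD201+ lay below both. Its paralog Phc2 was at 1.44 ± 0.296 FPKM in mESC, 4.55 ± 0.841 FPKM in D5-LSKCD201-, 12.4 ± 0.923 FPKM in D5-LSKCD201+, 13.9 ± 1.63 FPKM in FL-LSKCD201+ and 20.9 ± 2.32 FPKM in BM-LSKCD201+, and Phc3 stayed between 1.05 and 2.79 FPKM as group means. The Phc1 share of the 3 was 98.5% ± 0.141 in mESC, 89.4% ± 0.387 in D5-LSKCD201-, 30.6% ± 1.13 in D5-LSKCD201+, 43.2% ± 3.44 in FL-LSKCD201+ and 35.9% ± 1.46 in BM-LSKCD201+ (SD, n = 3). In this share D5-LSKCD201+ lay nearer to the cells from animals than to D5-LSKCD201-, unlike in the Bmi1 share.

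**Figure D3:**
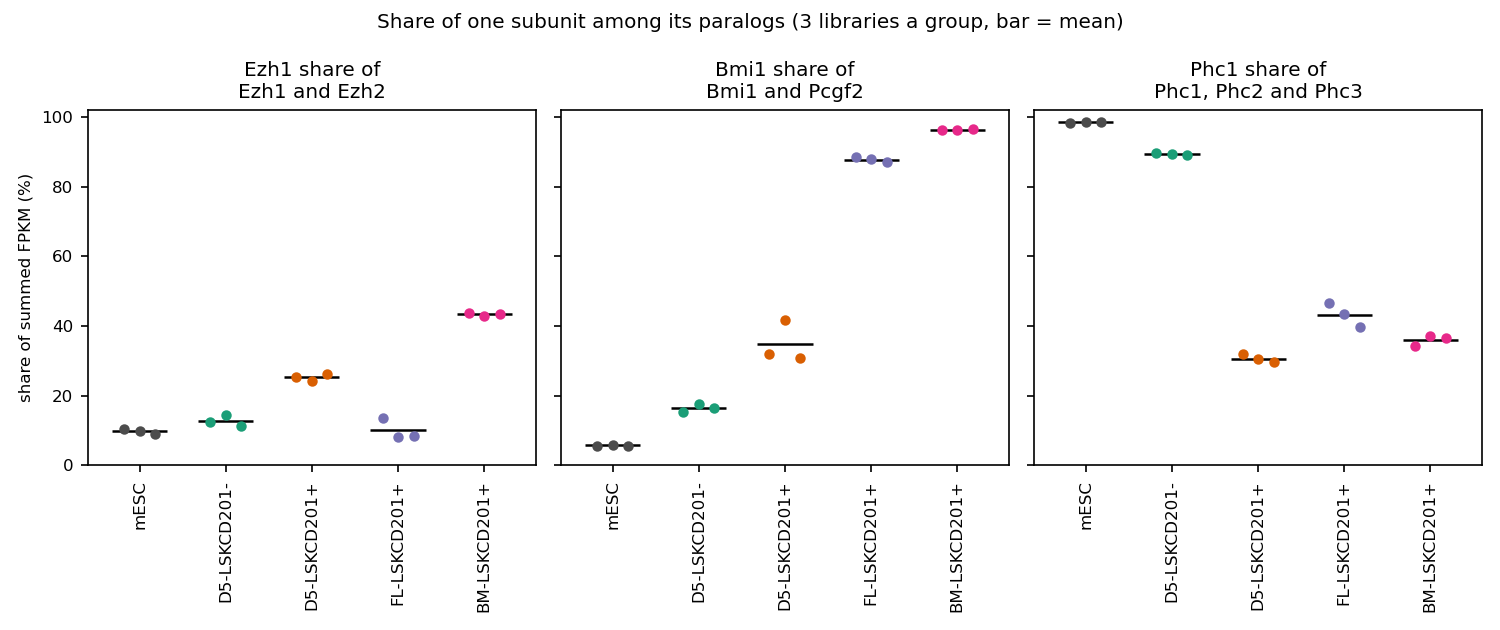
Share of Ezh1, Bmi1 and Phc1 in the summed FPKM of their paralogs in percent in the sorted-cell libraries, with 3 points a group and a bar at the mean. The Bmi1 share separated FL-LSKCD201+ and BM-LSKCD201+ (87.0% or more) from the other sorted-cell libraries (41.8% or less), and the Phc1 share separated mESC and D5-LSKCD201- (89.1% or more) from the other sorted-cell libraries (46.5% or less).

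Among all 33 comparisons of the 3 shares, 29 had no overlap between groups, and each of these reached the smallest possible p of 0.1 in the two-sided exact permutation test (Benjamini-Hochberg adjusted p = 0.114). None could pass a threshold of 0.05 in a design of 3 against 3. On gelatin and on OP9 cells, the Ezh1 share was 6.63% ± 0.983 and 9.58% ± 3.01 (SD, n = 3). The Bmi1 share was 3.35% ± 0.382 and 5.34% ± 0.178, and the Phc1 share 68.6% ± 3.29 and 61.7% ± 14.9. Between these coculture groups only the Bmi1 share had no overlap.

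The fits over all genes asked which members differed beyond the spread of their libraries. A gene was called with an adjusted p under 0.05 by limma and a log2 difference of at least 1. The members and the wider gene list used below were chosen with earlier results of these data known. Their counts and medians therefore describe them beside all genes and cannot serve as a test of the list. The median log2 difference of the members was -0.83 in D5-LSKCD201+ against D5-LSKCD201- (-0.12 over all tested genes), -1.14 against mESC (-0.075), -0.83 against FL-LSKCD201+ (-0.16) and -0.92 against BM-LSKCD201+ (-0.23). In D5-LSKCD201+ against D5-LSKCD201-, 4 of 10 members were called, all lower, where 24.7% of all tested genes were called and 13.9% as lower. They were Phc1 (log2 difference -2.74 ± 0.12 SE, adjusted p = 1.83e-06), Cbx7 (-2.34 ± 0.22), Jarid2 (-1.91 ± 0.18) and Eed (-1.58 ± 0.05). Ezh2 was lower by less than the fold threshold (-0.89, adjusted p = 0.000526), as was Suz12 (-0.76), and Ezh1 was higher (0.28, adjusted p = 0.0203, lost without single libraries as given above). Without D5-LSKCD201- replicate 2, Ezh2 also passed the fold threshold (-1.04). The pluripotency markers, given above, were far higher in D5-LSKCD201- than in D5-LSKCD201+, and the endothelial markers far lower (65.0 to 73.0 FPKM against 1468 to 1489 FPKM in sum). Their part in these differences was not tested.

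Against mESC, the groups share the same 3 control libraries, so their results stand side by side. D5-LSKCD201+ had 6 of 10 members lower and none higher (37.6% of genes called, 18.1% as lower), and these were Phc1 (-4.62 ± 0.05 SE), Cbx7 (-3.67 ± 0.14), Jarid2 (-3.29 ± 0.05), Eed (-2.49 ± 0.03), Ezh2 (-1.25 ± 0.05) and Suz12 (-1.02 ± 0.09). Suz12 stood just past the fold threshold and fell under it without D5-LSKCD201+ replicate 1 (-0.95) or mESC replicate 2 (-0.99). D5-LSKCD201- had 3 of 9 tested members lower (14.3% called, 3.48% as lower), namely Phc1 (-1.88 ± 0.11), Jarid2 (-1.38 ± 0.18) and Cbx7 (-1.32 ± 0.17), and Cbx8 was too low there to be tested. Bmi1 was higher than in mESC in both day 5 groups by less than the fold threshold, with 0.47 (adjusted p = 0.00137) in D5-LSKCD201+ and 0.53 (adjusted p = 0.00284) in D5-LSKCD201-. Cbx8 was higher in D5-LSKCD201+ than in mESC by 0.81 (adjusted p = 1.22e-05), also under the fold threshold, and passed it with a pseudocount of 0.1 in place of 1 (2.11), since a pseudocount of 1 shrinks the differences of low genes.

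FL-LSKCD201+ had 6 of 10 members called against mESC (42.3% of genes called). Bmi1 (2.198 ± 0.13 SE) and Cbx8 (1.68 ± 0.15) rose, and Phc1 (-3.79 ± 0.07), Jarid2 (-3.53 ± 0.08), Cbx7 (-1.82 ± 0.19) and Eed (-1.66 ± 0.07) fell. Suz12 was higher by 0.99 (adjusted p = 0.00276), just under the fold threshold, and passed it without FL-LSKCD201+ replicate 1 (1.22) or mESC replicate 2 (1.03) and with the lower pseudocount (1.07). BM-LSKCD201+ had 7 of 10 called (53.1% of genes called). Bmi1 (3.04 ± 0.09), Cbx8 (2.11 ± 0.16) and Ezh1 (1.17 ± 0.07) rose there, and Phc1 (-3.63 ± 0.10), Jarid2 (-3.56 ± 0.09), Eed (-1.9998 ± 0.04) and Ezh2 (-1.51 ± 0.07) fell. After quantile normalization the Ezh1 difference was 0.81, under the fold threshold, and Cbx2 passed it with -1.22 in place of -0.77. With the lower pseudocount the Cbx8 difference was 3.41 in FL-LSKCD201+ and 3.95 in BM-LSKCD201+.

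**Figure D4:**
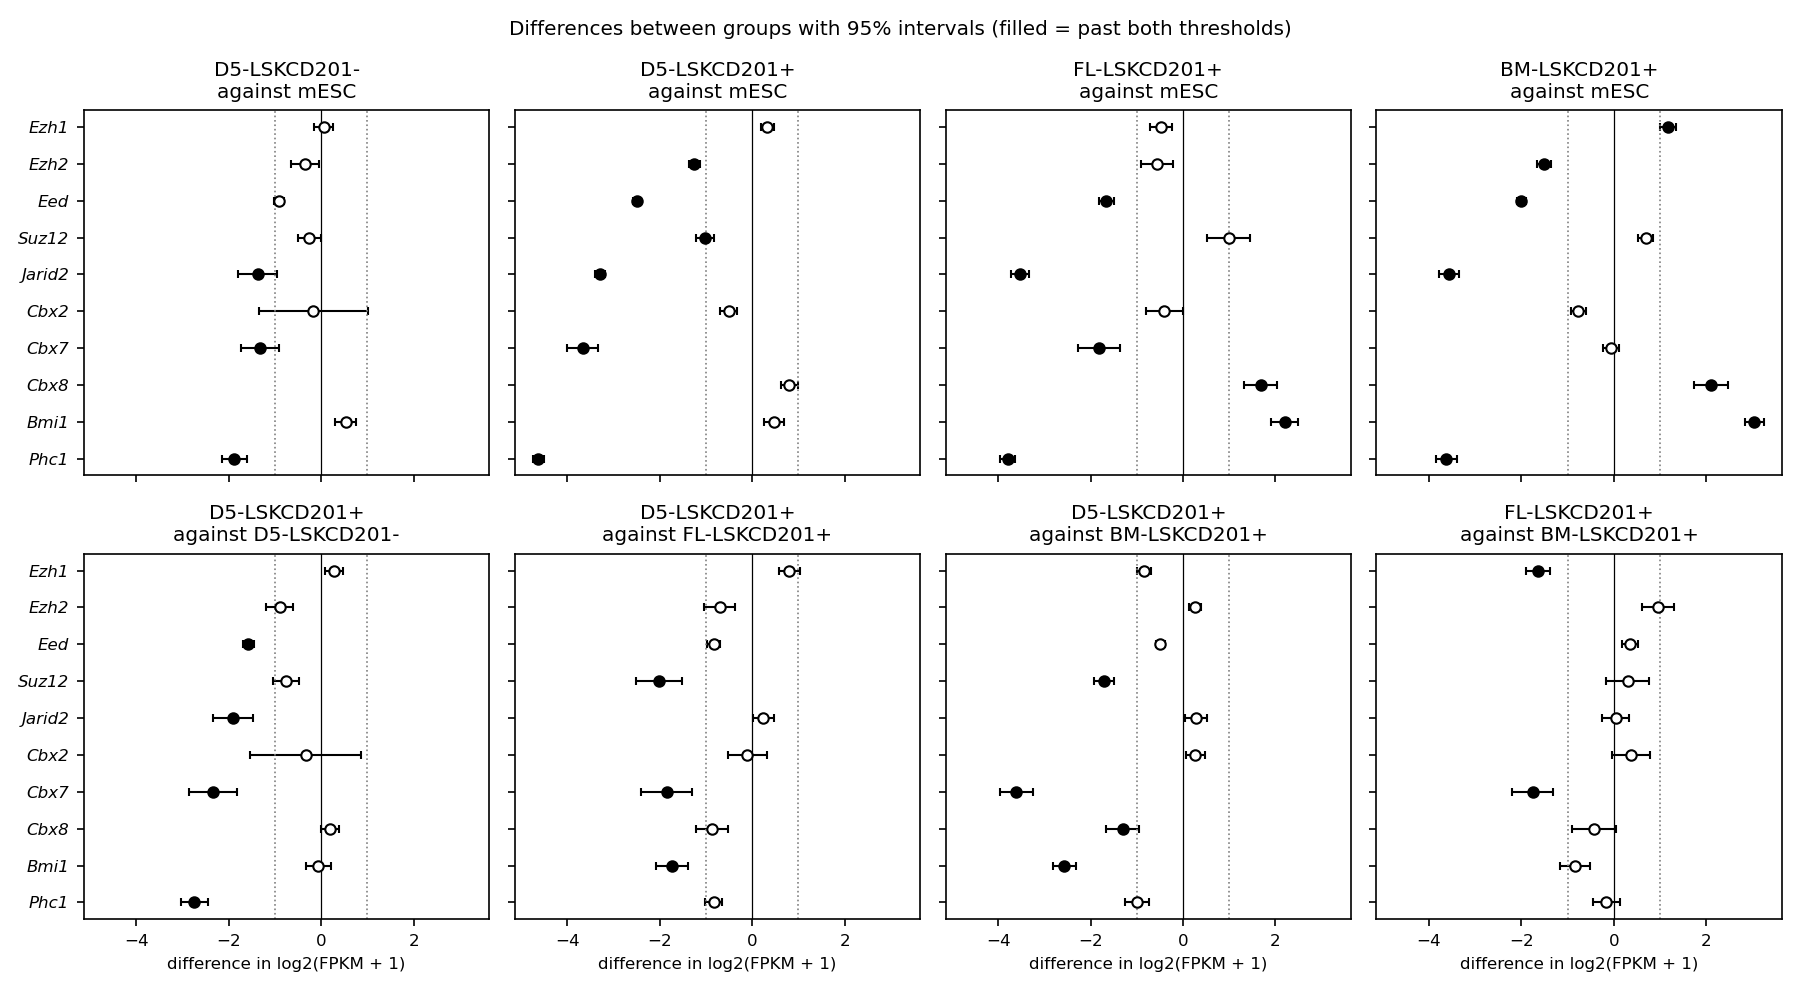
Difference in log2(FPKM + 1) of each member in 8 comparisons, with 95% intervals, where filled points passed both thresholds and dotted lines mark a difference of 1 either way. Phc1 and Jarid2 were lower than mESC in all 4 upper panels, while Bmi1 and Cbx8 were called as higher in the FL-LSKCD201+ and BM-LSKCD201+ panels.

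Next, D5-LSKCD201+ cells were set against the LSKCD201+ cells from animals. Against FL-LSKCD201+, 3 of 10 members were called, all lower (34.7% of genes called, 19.6% as lower), namely Suz12 (-2.01 ± 0.21 SE, adjusted p = 0.000113), Cbx7 (-1.85 ± 0.23) and Bmi1 (-1.73 ± 0.14). Against BM-LSKCD201+, 4 of 10 were called, all lower (44.7% called, 27.2% as lower), namely Cbx7 (-3.61 ± 0.15), Bmi1 (-2.57 ± 0.11), Suz12 (-1.71 ± 0.09) and Cbx8 (-1.30 ± 0.15). Cbx8 was at -0.96 after quantile normalization, under the fold threshold, and against FL-LSKCD201+ it passed with the lower pseudocount (-1.30 in place of -0.87). Phc1 stood just under the fold threshold against BM-LSKCD201+ (-0.99, adjusted p = 8.03e-05) and passed it without BM-LSKCD201+ replicate 1 (-1.11) or D5-LSKCD201+ replicate 2 (-1.04) and with the lower pseudocount (-1.09). Ezh1 differed from the cells of animals in opposite directions, with 0.80 (95% interval 0.58 to 1.03) against FL-LSKCD201+ and -0.84 (-0.997 to -0.690) against BM-LSKCD201+. Jarid2 had a log2 difference of 0.24 (95% interval 0.02 to 0.46, adjusted p = 0.0509) from FL-LSKCD201+ and was higher than in BM-LSKCD201+ by 0.28 (0.04 to 0.51, adjusted p = 0.0323), with overlapping libraries in the latter. The latter adjusted p was 0.0545 to 0.111 under 7 of the alternatives, 4 of which left out a library (D5-LSKCD201+ replicate 1 or 2, BM-LSKCD201+ replicate 2 or 3), and the former was 0.00331 without FL-LSKCD201+ replicate 1. Of 7 stromal markers tested, 5 were called as higher than in FL-LSKCD201+ and 6 as higher than in BM-LSKCD201+, and all 7 endothelial markers were higher than in both. All 6 erythroid and all 6 myeloid markers were called as lower than in FL-LSKCD201+. Against BM-LSKCD201+, 6 of 13 cell cycle genes and all 5 pluripotency markers tested were called as higher, and 7 of 8 stem and progenitor markers as lower. The part of these markers in the differences of the members was not tested.

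For D5-LSKCD201- against FL-LSKCD201+, 5 of 10 members were called (37.3% of genes called). Jarid2 (2.15 ± 0.20 SE) and Phc1 (1.91 ± 0.14) were higher, and Bmi1 (-1.67 ± 0.15), Suz12 (-1.25 ± 0.21) and Cbx8 (-1.06 ± 0.15) were lower. Cbx8 was under the fold threshold without FL-LSKCD201+ replicate 1 (-0.92). Against BM-LSKCD201+, 8 of 10 were called (49.3% of genes called), with Jarid2 (2.19 ± 0.20), Phc1 (1.75 ± 0.15), Ezh2 (1.153 ± 0.13) and Eed (1.09 ± 0.06) higher and Bmi1 (-2.51 ± 0.12), Cbx8 (-1.495 ± 0.16), Cbx7 (-1.26 ± 0.17) and Ezh1 (-1.12 ± 0.09) lower. The Ezh1 difference was -0.88 after quantile normalization. Suz12 (-0.95) passed the fold threshold without D5-LSKCD201- replicate 1 (-1.02) and with the lower pseudocount (-1.05), and Cbx2 (0.60, adjusted p = 0.301) was called without D5-LSKCD201- replicate 2 (1.26). All 8 pluripotency markers were called as higher in D5-LSKCD201- than in either group from animals (3749 to 4247 FPKM in sum, against 5.70 to 11.2 FPKM in FL-LSKCD201+ and 0 to 11.03 FPKM in BM-LSKCD201+), and all 6 erythroid and all 6 myeloid markers as lower than in FL-LSKCD201+. Their part in the differences of the members was not tested. Strain, culture and origin in the animal all differ in the comparisons of these paragraphs and cannot be told apart.

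Within the animal, FL-LSKCD201+ against BM-LSKCD201+ had 2 of 10 members called, both lower (19.1% of genes called, 11.3% as lower). Cbx7 (-1.76 ± 0.19 SE, adjusted p = 0.000235) and Ezh1 (-1.65 ± 0.11, adjusted p = 2.98e-05) were lower in fetal liver in every library. Ezh2 was higher by 0.96 ± 0.15 (adjusted p = 0.00126), just under the fold threshold, and passed it without FL-LSKCD201+ replicate 1 (1.12) and after quantile normalization (1.03). Bmi1 was lower by less than the threshold (-0.84, adjusted p = 0.00184), while Jarid2 (0.04, 95% interval -0.26 to 0.33) and Phc1 (-0.16, -0.45 to 0.13) did not pass the test. The erythroid, myeloid and cell cycle genes given above were all higher in sum in fetal liver, and their part in these differences was not tested.

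With the adjusted p alone, more members passed, as did most genes. They were 7 of 10 in D5-LSKCD201+ against D5-LSKCD201- (68.3% of all tested genes), 10 against mESC (85.5%), 8 against FL-LSKCD201+ (72.1%) and 10 against BM-LSKCD201+ (83.4%). In D5-LSKCD201- against mESC 6 of 9 tested passed (54.6%) and in FL-LSKCD201+ against BM-LSKCD201+ 5 of 10 (55.1%). Between fetal liver and bone marrow, differences that did not pass in full did so without FL-LSKCD201+ replicate 1 for Suz12 (adjusted p = 0.00192) and Cbx8 (0.0402), and without BM-LSKCD201+ replicate 1 for Cbx8 (0.0346) and Phc1 (0.0431). Cbx2 also passed in FL-LSKCD201+ against mESC without FL-LSKCD201+ replicate 1.

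In the coculture experiment limma called none of the 10 members in 3D+OP9 against 3D+0.1% gelatin, where 2.62% of genes were called. No member passed with the adjusted p alone, and the lowest adjusted p-values were those of Cbx2 and Ezh1. Ezh1 was at 4.61, 4.79 and 8.84 FPKM in 3D+OP9 and at 4.28, 3.11 and 3.49 FPKM in 3D+0.1% gelatin, with a log2 difference of 0.57 ± 0.23 SE (limma, adjusted p = 0.193). Cbx2 was at 10.9, 12.45 and 10.5 FPKM in 3D+OP9 and at 12.8, 14.6 and 14.8 FPKM in 3D+0.1% gelatin, with a log2 difference of -0.30 ± 0.11 SE (limma, adjusted p = 0.148). These groups did not overlap, and nor did those of Ezh2, Jarid2 and Bmi1, so 5 of 10 members had separate groups where 28.7% of all tested genes did. Markers of other cell types were higher in 3D+OP9, with 76.6 to 91.6 against 9.52 to 20.4 FPKM in sum for endothelial markers (6 of 7 tested called), 58.2 to 69.4 against 25.7 to 37.0 FPKM for stromal markers (3 of 7) and 37.0 to 92.8 against 4.31 to 8.30 FPKM for erythroid markers (3 of 5). The stem and progenitor markers summed to 31.5 to 39.1 FPKM against 9.57 to 11.9 FPKM, with 4 of 7 called. The part of these markers in the levels of the members was not tested.

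Replicate 3 of 3D+OP9 decided several of these levels. Phc1 was at 69.4, 70.1 and 126 FPKM in 3D+OP9 and at 96.4, 104 and 107 FPKM in 3D+0.1% gelatin, and Cbx7 at 20.2, 20.8 and 44.7 FPKM against 23.6, 29.7 and 31.8 FPKM. Replicate 3 was the highest of all 6 libraries for both and for Ezh1 and Jarid2, and it also had the highest summed pluripotency markers, with 1657 FPKM against 826 and 831 FPKM in the other 3D+OP9 libraries and 1277 to 1366 FPKM on gelatin. The single pluripotency markers went opposite ways, since Esrrb (24.9 to 46.1 against 2.01 to 2.19 FPKM) and Zfp42 (31.0 to 53.2 against 3.88 to 7.71 FPKM) were called as higher in 3D+OP9, 2 of 8 tested, and none as lower, while Pou5f1 (-0.71, adjusted p = 0.0446) and Nanog (-0.98, adjusted p = 0.0197) were lower by less than the fold threshold. Without replicate 3, Phc1 had a log2 difference of -0.55 (adjusted p = 0.00435) in place of -0.27 (adjusted p = 0.515), Cbx7 one of -0.44 (adjusted p = 0.0627) in place of -0.08, Ezh1 one of 0.31 (adjusted p = 0.179) in place of 0.57 and Jarid2 one of 0.10 in place of 0.27, and still none of the 10 passed the fold threshold. The part of the pluripotency markers in these levels was not tested. In total cells, fewer cells of a type and less RNA per cell cannot be told apart, and RNA of the OP9 cells, also of mouse, can be part of the 3D+OP9 libraries.

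**Figure D5:**
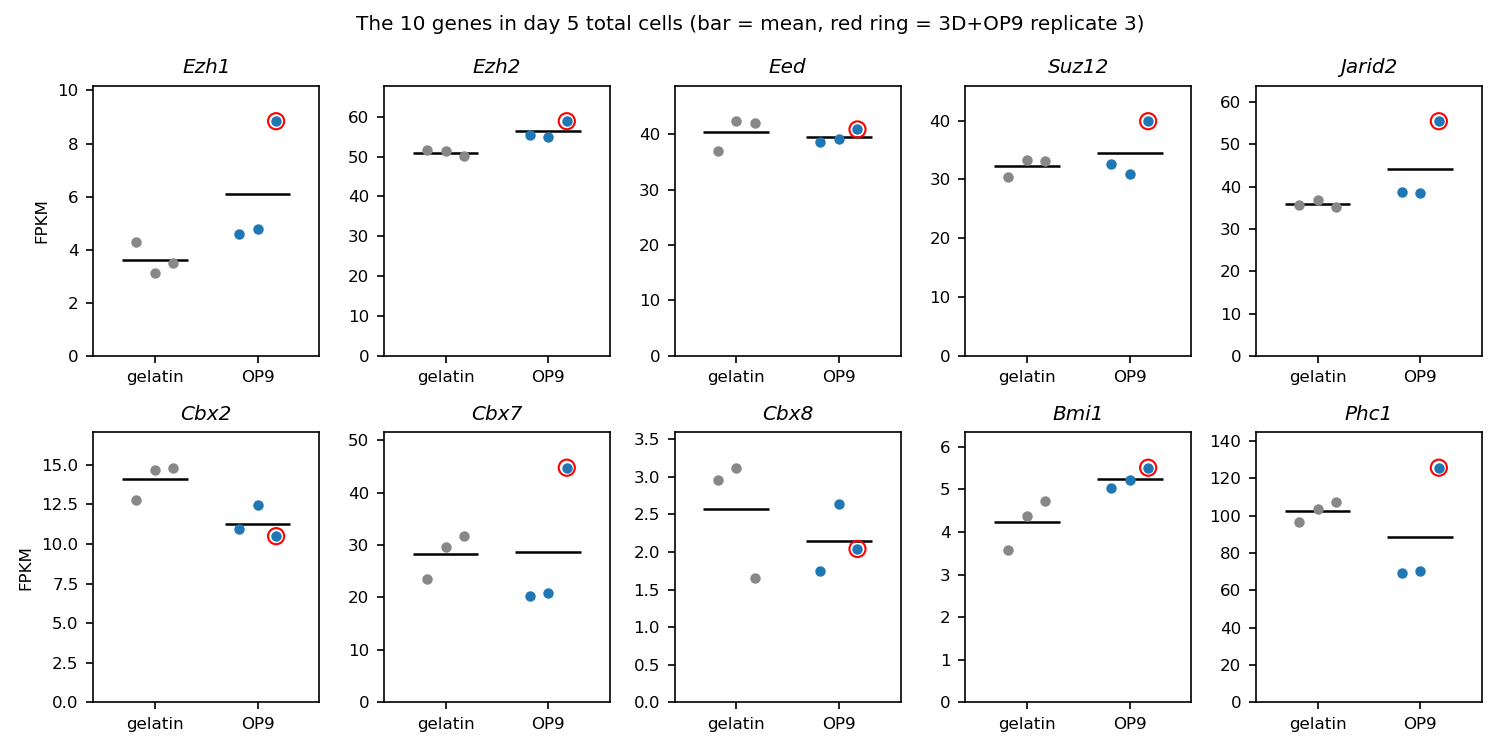
FPKM of each member in the 6 day 5 total cell libraries, with 3 points a group, a bar at the mean and a red ring on 3D+OP9 replicate 3. The ringed library was the highest of the 6 for Ezh1, Ezh2, Suz12, Jarid2, Cbx7, Bmi1 and Phc1.

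The wider Polycomb list of 46 genes, which holds the members, gave the setting. All were listed in the coculture table and 45 in the sorted-cell table. In 3D+OP9 against 3D+0.1% gelatin limma called none of the 46, where 2.62% of all tested genes were called. Pcgf2 was lower by less than the fold threshold (-0.39, adjusted p = 0.0147), with 93.0 ± 2.94 FPKM against 122 ± 4.55 FPKM. In D5-LSKCD201+ against D5-LSKCD201-, 2 of 44 tested were higher and 9 lower (25.0% called, against 24.7% of all tested genes), with a median log2 difference of -0.30 against -0.12 over all genes. The PRC2 partner Phf1 (1.43 ± 0.13 SE) and Phc2 (1.28 ± 0.13) were the 2 that rose, and the largest falls were those of Phc1 and of Fbrsl1 (-2.69 ± 0.34), a relative of a variant PRC1 subunit. Against mESC, D5-LSKCD201+ had 4 of 42 higher and 12 lower (38.1% against 37.6% of all), with the largest rises in Pcgf5 (2.64 ± 0.10), a PCGF subunit of variant PRC1, and Phc2 (2.46 ± 0.10) and the largest falls in Phc1 and Cbx7. D5-LSKCD201- had 4 of 42 higher and 3 lower against mESC (16.7% against 14.3%), led by Pcgf5 (1.77) and Yaf2 (1.41), and the 3 that fell were the members Phc1, Jarid2 and Cbx7.

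For the cells from animals, FL-LSKCD201+ had 13 of 44 higher and 8 lower against mESC (47.7% called, against 42.3% of all tested genes), and BM-LSKCD201+ had 15 of 43 higher and 8 lower (53.5% against 53.1%). The largest rise in both was that of Phc2 (2.61 ± 0.13 SE in fetal liver and 3.17 ± 0.12 in bone marrow), followed by the variant PRC1 subunit gene Fbrs (2.54 ± 0.10) in fetal liver and Phf1 (3.09 ± 0.12) in bone marrow, and the largest falls were those of Phc1 and Jarid2. The median log2 difference of the list was 0.14 in fetal liver and 0.41 in bone marrow, against 0.10 and 0.23 over all genes. D5-LSKCD201+ had 1 of 44 higher and 12 lower against FL-LSKCD201+ (29.5% against 34.7%) and 1 of 44 higher and 15 lower against BM-LSKCD201+ (36.4% against 44.7%). The gene that was higher in both was Pcgf2 (1.001 ± 0.12 and 1.45 ± 0.09). Against fetal liver it stood just past the fold threshold, and the alternatives were read for the members only. The largest falls were those of Fbrsl1 (-2.34 ± 0.22) and Suz12 (-2.01 ± 0.21) against fetal liver and of Cbx7 and Fbrsl1 (-3.31 ± 0.17) against bone marrow. Against FL-LSKCD201+, D5-LSKCD201- had 5 of 44 higher, led by Pcgf2 (2.29) and Jarid2, and 9 lower, led by Fbrs (-2.09) and Cbx6 (-1.88), which is 31.8% against 37.3% of all. Against BM-LSKCD201+ it had 8 of 43 higher, led by Pcgf2 (2.74) and the variant PRC1 subunit gene L3mbtl2 (2.53), and 14 lower, led by Phf1 (-2.89) and Cbx6 (-2.71), which is 51.2% against 49.3%. Cbx6, whose table locus is merged with Nptxr, was at 2.95, 0.657 and 3.11 FPKM in D5-LSKCD201-, where replicate 2 was again the lowest, and at 8.96 FPKM or more in every FL-LSKCD201+ and BM-LSKCD201+ library. Between FL-LSKCD201+ and BM-LSKCD201+, none of 44 was higher and 3 were lower (6.82% called, against 19.1% of all), which were Phf1 (-1.80 ± 0.14), Cbx7 and Ezh1.

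Finally, the genes with a pattern most like Ezh1 and Ezh2 were sought over the 15 sorted-cell libraries, which share 5 groups, among 9711 genes whose mean reached 1 FPKM and whose group means spanned at least 1 on the log2 scale. For Ezh1 they were Leprotl1 (Pearson r = 0.967), Cyb5d1 (0.956), Ltbp3 (0.955) and Sgsm1 (0.951). Ltbp3 was at 19.4 FPKM in BM-LSKCD201+ and at 0.144 FPKM in FL-LSKCD201+ as group means. For Ezh2 they were Serbp1 (0.986), Xpo4 (0.977), Lyar (0.970), Fanca (0.966) and Mrpl47 (0.966). Lyar, a nucleolar protein gene, was at 272 FPKM in mESC and 61.7 FPKM in BM-LSKCD201+.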

How the data were processed

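RNA from 21 libraries had been sequenced as paired reads. Per the labels' processing notes, the authors used HISAT2 2.0.5, StringTie 1.3.3 and Cuffdiff 1.3.0 on GRCm38 (mm9 is named too). The deposited FPKM values were used as given. The coculture table gives them to 2 decimals and lists 22899 genes, 3578 of them without any value. Low values of a pair of mESC libraries had no common step, so depth is unknown and no counting intervals are given. The tables, normalized separately, were tested apart. The members and gene lists were chosen with earlier results of these data known.

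Differences were tested with limma 3.58.1 (trend, R 4.3.3) on log2(FPKM + 1) on genes whose mean across the compared groups reached 0.5 FPKM, with Benjamini-Hochberg adjustment over all genes tested in each of 11 comparisons. Calls needed an adjusted p under 0.05 and a log2 difference of at least 1. The fit was tested on simulated data. Subunit shares were compared with two-sided exact permutation tests (scipy 1.17.1). Every member is named, and from the wider list the 2 largest rises and falls past the thresholds among the genes reported. A Polycomb gene, the shares within its family and a gene of the likeness search are not reported here. Same-numbered FL-LSKCD201+ and BM-LSKCD201+ libraries deviated together (correlations across genes of 0.242, 0.202 and 0.159, all over the limit of 0.1), so a fit with the replicate number as a block was read beside the main one. That pairing comes from the data alone, since the labels name no shared batch. Alternatives were a pseudocount of 0.1, a filter of 1 FPKM or none, quantile normalization, a constant prior variance, a replicate block, the adjusted p alone, a single fit over all sorted groups and each library left out. Averaging the nearest pair of replicates was chosen after seeing the data.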

Additional observations from a re-analysis of the deposited data

How the results depend on the processing

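Over all alternatives and members, 1542 log2 differences kept their direction and their call, 47 were called in addition, 6 were no longer called and 18 changed sign. A call needed both thresholds together, except with the adjusted p alone. Under the other alternatives, a difference below the fold threshold could gain or lose the adjusted p threshold and still count as kept. The losses given above for Ezh1, Ezh2, Cbx2 and Jarid2 are of this kind. Without the fold threshold, adjusted p alone called 7 members in D5-LSKCD201+ against D5-LSKCD201-, 10 against mESC, 8 against FL-LSKCD201+ and 10 against BM-LSKCD201+, 6 in D5-LSKCD201- against mESC and 5 in FL-LSKCD201+ against BM-LSKCD201+, since fewer conditions had to be met. All other counts stayed within 1.5 times, including those with the replicate block, which left every count as it was (2 for FL-LSKCD201+ against BM-LSKCD201+, 0 for 3D+OP9 against 3D+0.1% gelatin, 4 for D5-LSKCD201+ against D5-LSKCD201-), and those with the nearest pair of replicates averaged. The correlation of same-numbered libraries was over 0.1 in all 3 pairs for FL-LSKCD201+ against BM-LSKCD201+ alone, although there 1 of 3 numbers matched best with itself. It was positive in all 3 also for 3D+OP9 against 3D+0.1% gelatin (0.0724 to 0.291) and for D5-LSKCD201- against FL-LSKCD201+ (0.0291 to 0.146) and BM-LSKCD201+ (0.0370 to 0.121, each library closest to its own number in 3 of 3). Quantile normalization moved the median of all genes from -0.23 to -0.02 in D5-LSKCD201+ against BM-LSKCD201+ and from 0.23 to -0.06 in BM-LSKCD201+ against mESC. It moved the Ezh1 share to 11.1% in mESC and 42.6% in BM-LSKCD201+, the Bmi1 share to 6.35% in mESC, 14.8% in D5-LSKCD201-, 96.2% in BM-LSKCD201+ and 5.10% in 3D+OP9, and the Phc1 share to 98.1% in mESC, and the cause was not tested.

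Differences that changed sign were near 0 or rested on 1 library. After quantile normalization, Bmi1 in D5-LSKCD201+ against D5-LSKCD201- was 0.17, Ezh1 in D5-LSKCD201- against mESC -0.093 and Cbx2 in D5-LSKCD201+ against FL-LSKCD201+ 0.072. With the nearest pair averaged, Cbx7 in 3D+OP9 against 3D+0.1% gelatin was 0.11 and Cbx2 in D5-LSKCD201- against FL-LSKCD201+ -0.19. With each library left out, 3D+OP9 against 3D+0.1% gelatin gave -0.089 to 0.0069 for Eed, -0.020 to 0.16 for Suz12 and -0.44 to 0.12 for Cbx7. Cbx2 ranged from -0.999 to 0.0018 in D5-LSKCD201+ against D5-LSKCD201-, -0.51 to 0.49 in D5-LSKCD201- against mESC, -0.24 to 0.085 in D5-LSKCD201+ against FL-LSKCD201+ and -0.11 to 0.89 in D5-LSKCD201- against FL-LSKCD201+. Jarid2 ranged from -0.049 to 0.13 in FL-LSKCD201+ against BM-LSKCD201+.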

Other observations

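Variant PRC1 genes outside the members also differed between groups. Pcgf6, whose product marks a variant PRC1 of stem and germ cells, made up 58.7% ± 1.19 of the PCGF sum in mESC, 52.2% ± 2.05 in D5-LSKCD201-, 15.4% ± 1.21 in D5-LSKCD201+, 24.3% ± 1.153 in FL-LSKCD201+ and 14.7% ± 0.418 in BM-LSKCD201+ (SD, n = 3). Pcgf5 led the family in the latter 3 groups, with 64.6% ± 0.557, 40.2% ± 1.21 and 51.5% ± 0.582, against 7.11% ± 1.09 in mESC. In the coculture table Pcgf2 led instead, with 63.4% ± 2.36 on gelatin and 53.8% ± 0.567 on OP9 cells, and Pcgf6 had 14.7% ± 0.284 and 14.1% ± 0.571, so the order of these genes differs between the separately normalized tables. Bmi1, the member of this family, stayed behind Pcgf5 in every group. In FL-LSKCD201+ it took 12.2% and was also behind Pcgf6 and Pcgf1 (17.6%). L3mbtl2, another subunit of the Pcgf6 complex, was at 61.9 ± 2.34 FPKM in D5-LSKCD201- and at 15.1 ± 0.988 FPKM in D5-LSKCD201+, a log2 difference of -1.97 ± 0.07 SE in the limma fit (adjusted p = 5.47e-07). These are descriptions, and no explanation was tested.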
